A study of Mus musculus with 10 samples.

Results

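Transcripts of the S100 family of calcium-binding proteins were followed in the gastrocnemius, the large calf muscle, of male mice aged 16 weeks. Members were the probe sets of the array whose platform annotation names exactly 1 gene and whose gene is S100a1, S100a3, S100a4, S100a6, S100a8, S100a9, S100a10, S100a11 or S100a13. The rule found 15 probe sets, of 12488 on the array, for 8 of the 9 genes. The annotation lists S100a11 only on a probe set that it also assigns to other genes, so S100a11 was not analysed here. The study compared 5 arrays of normal mice (control) with 5 arrays of mdx mice, a dystrophin mutant strain in which an early stop codon prevents the full-length protein. The series title calls the mdx muscle regenerated. The strain behind the normal mice and whether each array came from its own animal are not given in the labels. The p-values then measure only how far these samples spread, and part of that spread may be technical.

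S100 proteins are small proteins of vertebrates that usually act as dimers and carry 2 calcium-binding loops of the EF-hand type per chain. Most of them change shape when calcium rises and then grip a target protein, so a chain's function follows from its partners: annexins at membranes, non-muscle myosin at the cytoskeleton, or the calcium release channel and calcium pump of muscle. Some are also released from cells and act outside them as signals of injury. In muscle, S100a1 belongs to the fibres themselves, S100a4 and S100a6 are prominent in fibroblasts, macrophages and other motile cells, and the pair S100a8 and S100a9 forms calprotectin, the abundant cytosolic protein of neutrophils and some monocytes.

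Sequence upstream of the start is shown for S100a4 and S100a6, which lie close together on chromosome 3 and were both higher in mdx. Each line gives the 250 bases before the start in the RefSeq gene models of build GRCm38.p6, plus strand, chr3:90603520-90603769 for S100a4 and chr3:90612644-90612893 for S100a6. Capitals mark the matches listed after the lines.
S100a4: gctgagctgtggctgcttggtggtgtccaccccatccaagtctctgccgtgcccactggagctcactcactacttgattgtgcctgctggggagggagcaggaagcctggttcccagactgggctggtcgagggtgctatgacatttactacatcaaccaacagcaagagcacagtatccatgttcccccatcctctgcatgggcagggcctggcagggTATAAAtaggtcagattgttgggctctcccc
S100a6: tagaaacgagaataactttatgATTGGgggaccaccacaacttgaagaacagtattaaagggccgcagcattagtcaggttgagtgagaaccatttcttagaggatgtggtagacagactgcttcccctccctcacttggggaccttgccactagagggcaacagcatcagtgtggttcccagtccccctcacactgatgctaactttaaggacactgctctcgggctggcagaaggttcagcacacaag
The search covered both strands for the TATA box (TATAAA), the CCAAT box (CCAAT), the GC box (GGGCGG), the AP-1 site (TGANTCA), the CArG box and the NF-kappaB site, and no match overlapped another. S100a4 held a TATA box that ends 25 bases before the start, a motif found in 12.4% of 32851 promoters over the same 250 bases. S100a6 held no TATA box and held a CCAAT box on the minus strand that ends 223 bases before the start, a motif in 33.8% of promoters. Neither window held the AP-1 site (6.75% of promoters), the GC box (32.7%), the CArG box (1.47%) or the NF-kappaB site (7.25%), which says only that these letters are not there. The short E-box (CANNTG), left in lower case, matched 1 time in the S100a6 window and 0 times in that of S100a4, and is in 66.2% of promoters. Of the 9 listed genes 8 had an entry in the table, and S100a10 had none.

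Of the S100 genes that could be tested, S100a4, S100a6, S100a10 and S100a13 were higher in mdx muscle and S100a1 was lower at the deposited scaling. Intensities are those deposited, on a linear scale, and changes are mdx minus control on the scale log2(intensity + 373), where 373 is a noise level taken from the values below 0; a change on this scale understates that of a dim gene. A probe set was tested if its intensity was above 134 on at least 5 of the 10 arrays, and called if its adjusted p was below 0.05 by limma, adjusted by Benjamini-Hochberg across all 7612 tested probe sets. Of the 15 S100 probe sets 11 were tested. Of these, 6 were called higher, 1 was called lower and 4 were not called, in a comparison in which 33.6% of all tested probe sets were called, 15.8% as higher and 17.8% as lower. The median log2 change was 0.74 over the 11 tested S100 probe sets and -0.03 over all tested probe sets. Each of the 7 called S100 probe sets lay above the filter on all 10 arrays, so none of them was tested only because of its level in 1 group. The piece of muscle was measured whole, so more transcript per cell and more cells of a type that makes it cannot be told apart.

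**Figure D1:**
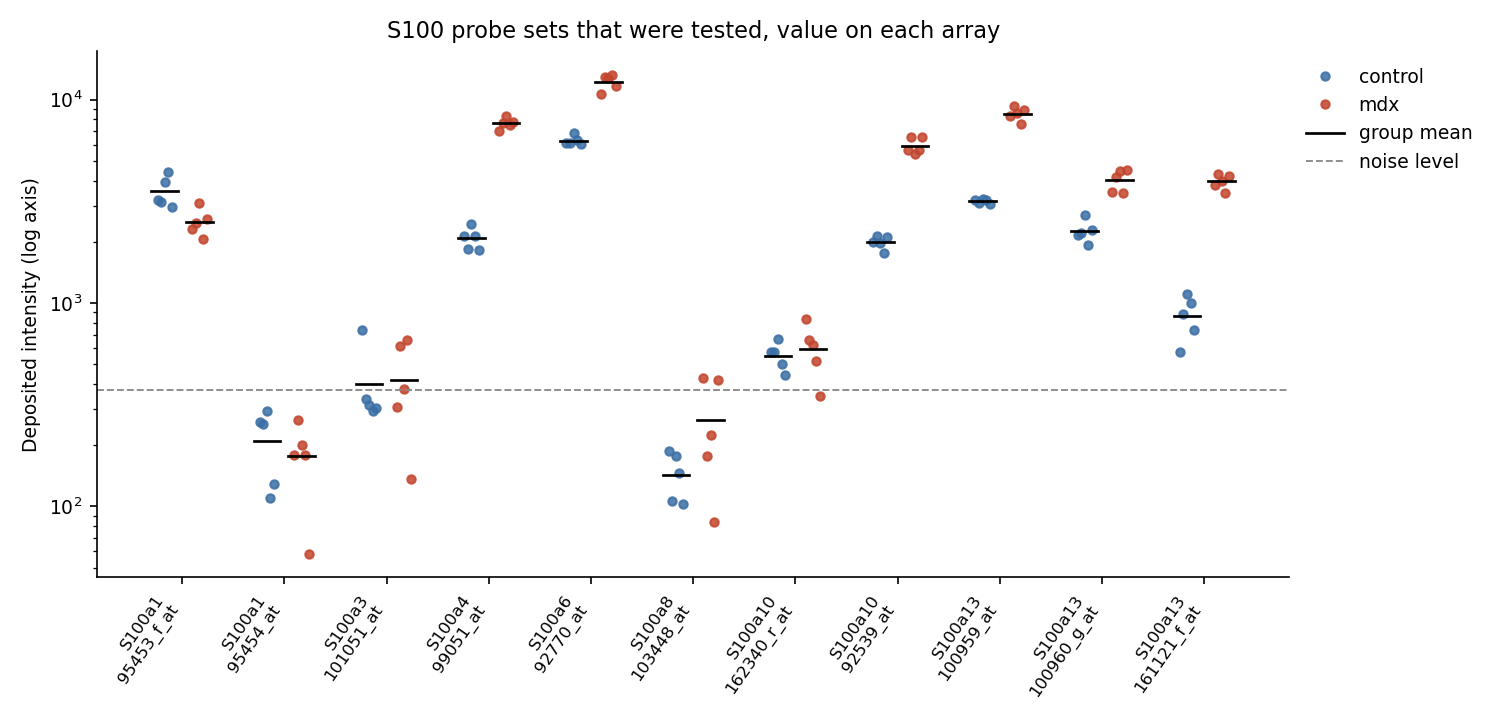
Deposited intensity (log axis) of the 11 tested S100 probe sets on each of 5 control (blue) and 5 mdx (red) arrays, with the group mean as a bar and the noise level of 373 as a dashed line. The groups are fully apart for S100a4, S100a6, the brighter S100a10 probe set and 3 S100a13 probe sets, and overlap for the rest.

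S100a4, also called fibroblast-specific protein or metastasin, binds the heavy chain of non-muscle myosin and is linked to cell movement. Its probe set 99051_at read 2148, 1849, 2442, 2137 and 1832 on control replicates 1 to 5 and 7015, 7689, 8269, 7499 and 7756 on mdx replicates 1 to 5. Every mdx array lay far above every control array, and the lowest mdx value was that of replicate 1. That array was dimmer as a whole, with a mean after trimming 2% from each end of 715, against 789 to 793 on the others. The control mean was 2082 ± 252 and the mdx mean 7646 ± 453 (SD, n = 5), a ratio of 3.67. On the log2 scale the change was 1.71, with an SE of 0.08 (limma adjusted p = 2.05e-08).

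S100a6, or calcyclin, binds the ubiquitin-ligase adaptor Cacybp and several annexins and is made by proliferating and stromal cells. Its probe set 92770_at read 6098, 6108, 6835, 6302 and 6063 in control and 10714, 12948, 12742, 13270 and 11700 in mdx. The groups did not overlap, and the control arrays lay close together. The means were 6281 ± 323 and 12275 ± 1052 (SD, n = 5), a ratio of 1.95. The log2 change was 0.92, with an SE of 0.07 (limma adjusted p = 1.49e-06). S100a4 and S100a6 were read by 1 probe set each.

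S100a10, or p11, is the member that no longer needs calcium: its loops are fixed in the open shape, and it sits with annexin A2 in a complex at the plasma membrane that also binds the giant scaffold Ahnak. The brighter of its probe sets, 92539_at, read 1985, 2127, 1967, 1759 and 2101 in control and 5653, 6525, 5377, 5630 and 6564 in mdx. All mdx arrays were higher than all control arrays, and mdx replicates 2 and 5 were the highest. The means were 1988 ± 146 and 5950 ± 554 (SD, n = 5), a ratio of 2.99. The log2 change was 1.42, with an SE of 0.08 (limma adjusted p = 6.39e-08). The other probe set of S100a10, 162340_r_at, did not pass. It read 444 to 664 in control and 350 to 833 in mdx, with a log2 change of 0.05 (95% confidence interval -0.23 to 0.33, limma adjusted p = 0.805). The suffix r marks a probe set that the manufacturer built with some of its selection rules dropped. The 2 probe sets of this gene thus disagree, and which of them follows the transcript was not tested.

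S100a13 takes part in the release of the growth factor Fgf1 and of interleukin 1 alpha, which leave the cell without a signal peptide. It had the most probe sets of the family, 4, of which 3 were tested and all 3 were called higher. Probe set 100959_at read 3201, 3112, 3265, 3204 and 3055 in control and 8325, 9292, 8598, 7631 and 8869 in mdx. Control values lay within a narrow band that no mdx value came near. The means were 3167 ± 83.4 and 8543 ± 623 (SD, n = 5), a ratio of 2.70. The log2 change was 1.33, with an SE of 0.07 (limma adjusted p = 2.61e-08). The direction was shared by the other 2, but the size was not. The log2 change was 0.74 for 100960_g_at (95% confidence interval 0.53 to 0.96, limma adjusted p = 9.03e-05), from 2256 ± 279 to 4027 ± 496. It was 1.83 for 161121_f_at (95% confidence interval 1.57 to 2.08, limma adjusted p = 1.88e-07), from 860 ± 210 to 3962 ± 333 (SD, n = 5). No interval of the 3 meets another, so the fold of S100a13 depends on the probe set read. The suffix f marks a set whose probes can match related sequences.

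**Figure D2:**
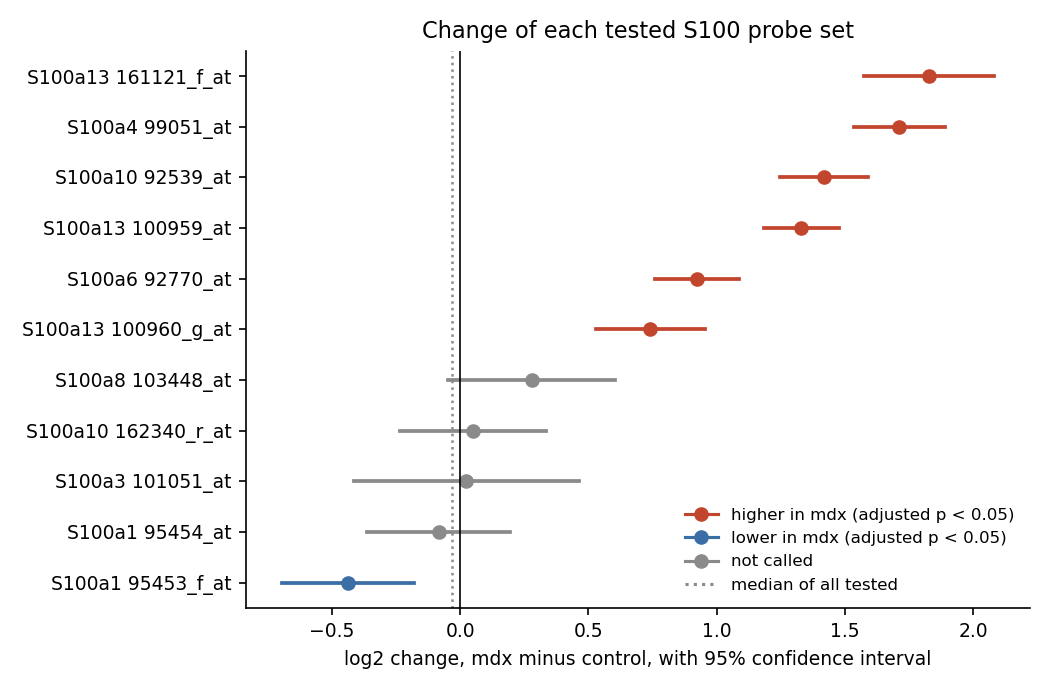
Log2 change, mdx minus control, with its 95% confidence interval for each of the 11 tested S100 probe sets (6 higher, red; 1 lower, blue; 4 not called, grey), with the median of all tested probe sets, -0.03, as a dotted line. The 6 called higher lie between 0.74 and 1.83, and the 1 called lower, S100a1, at -0.44, which turned to 0.13 under the scaling to hybridization controls.

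S100a1 is the S100 protein of striated muscle fibres, where it binds the calcium release channel Ryr1, the calcium pump and titin. Its bright probe set, 95453_f_at, read 3214, 3155, 3957, 4384 and 2971 in control and 2301, 2488, 3099, 2060 and 2588 in mdx. The groups overlapped through 1 array of mdx, replicate 3, which lay above control replicate 5. The means were 3536 ± 605 and 2508 ± 387 (SD, n = 5), a ratio of 0.709. The log2 change was -0.44, with an SE of 0.12 (limma adjusted p = 0.0126). This fall did not hold when arrays were scaled to their hybridization controls, RNAs added in known amounts: the change was then 0.13 (limma adjusted p = 0.399), or -0.22 relative to the median probe set against -0.40 here. The 2 other probe sets of S100a1 lay below the noise level on all 10 arrays, so the reading of this gene rests mostly on 95453_f_at. For 95454_at this depends on the noise level chosen. It read 110 to 294 in control and 58.6 to 266 in mdx, and lay above the filter on 7 of 10 arrays. Part of its values thus exceed the lower noise level of 157, taken from the median of the values below 0. The suffix f of 95453_f_at marks a set whose probes can match related sequences, and how much of its signal is S100a1 was not tested. For 95454_at the log2 change was -0.08 (limma adjusted p = 0.661), and 95452_i_at was not tested.

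S100a8 and S100a9 were near or below the noise level, so no level of calprotectin transcripts can be read with confidence. S100a8 (103448_at) read 186, 107, 176, 146 and 102 in control and 426, 178, 226, 83.7 and 419 in mdx. Only mdx replicates 1 and 5 exceeded the noise level, and mdx replicate 4 was the lowest of all 10 arrays. The means were 143 ± 38.6 and 266 ± 152 (SD, n = 5), and the log2 change of 0.28 did not pass (95% confidence interval -0.05 to 0.60, limma adjusted p = 0.178). It passed without mdx replicate 4, at 0.39 (limma adjusted p = 0.0413), and under the scaling to hybridization controls, at 0.49 (limma adjusted p = 0.0154). S100a9 (103887_at) read -126, 212, -80.1, 224 and -113 in control and 227, 152, 12.8, -89.7 and 77.3 in mdx. All 10 values lay below the noise level, in no order by group, and the probe set was not tested in the fit.

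S100a3, best known from the cuticle of hair, gave no called difference. Its probe set 101051_at read 739, 336, 314, 296 and 303 in control and 308, 616, 379, 659 and 136 in mdx. Control replicate 1 was the highest of all 10 arrays, and the groups overlapped over most of their range. The probe set lay below the noise level on 4 of 5 control and 2 of 5 mdx arrays. The means were 398 ± 192 and 420 ± 218 (SD, n = 5), with a log2 change of 0.02 (95% confidence interval -0.42 to 0.46, limma adjusted p = 0.945). The 4 S100 probe sets that the filter left out, of S100a1, S100a3, S100a9 and S100a13, had group means between -36.5 and 82.3. Their exact permutation p-values, two-sided over 5 against 5 arrays, ran from 0.0873 to 0.841 (0.349 to 0.841 adjusted over the 4).

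Without regard to the fit, the groups did not overlap for 6 of the 11 tested S100 probe sets, all 6 with mdx above control. The same held for 25.1% of all 7612 tested probe sets in either direction and for 12.3% with mdx above control.

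The S100 members and their partners changed by unequal amounts, as read by the brightest probe set of each gene. For each pair, the difference of both log2 values was taken on each array and set against the other group's in a two-sided exact permutation test, with Benjamini-Hochberg adjustment over the 5 pairs that could be tested of 7 fixed. The smallest p this design allows is 0.00794. Anxa2, the annexin A2 chain that holds S100a10 at the membrane, went from 3193 ± 310 to 12556 ± 2174 (SD, n = 5), a log2 change of 1.85. S100a10 changed by 0.43 less than Anxa2 (exact permutation p = 0.00794, adjusted p = 0.00992), and this difference was below all 5 control arrays on 5 of 5 mdx arrays. Mdx replicates 2 and 5 had the highest values of both: relative to the control mean, S100a10 stood at 1.55 and 1.56 there and Anxa2 at 2.03 and 2.17. The p-value covers the spread over arrays and not that between probe sets of 1 gene. S100a10 162340_r_at changed by 0.05, and the tested S100a13 probe sets by 0.74 to 1.83. Whether the genes S100a10 and Anxa2 changed unequally cannot be told from 1 probe set of each.

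Cacybp, Myh9 and Fgf1 had no called change at the deposited scaling. Cacybp, the calcyclin-binding protein, went from 1120 ± 128 to 1155 ± 125, a log2 change of 0.03 (limma adjusted p = 0.809). S100a6 changed by 0.89 more than Cacybp (exact permutation p = 0.00794, adjusted p = 0.00992). Myh9, the non-muscle myosin heavy chain bound by S100a4, went from 1239 ± 239 to 1439 ± 87.0 (SD, n = 5), a log2 change of 0.18 (limma adjusted p = 0.218). S100a4 changed by 1.53 more than Myh9 (exact permutation p = 0.00794, adjusted p = 0.00992). With so little change in Cacybp and Myh9, these differences mostly repeat the rises of S100a6 and S100a4. Taken alone, S100a6 and S100a4 each had the same exact permutation p of 0.00794. Under the scaling to hybridization controls Cacybp was called higher at 0.52 (limma adjusted p = 0.00917), and so was Myh9 at 0.68 (limma adjusted p = 0.00333). Fgf1, the cargo of S100a13, was below the noise level on all 10 arrays, so the difference of 1.28 between them (exact permutation p = 0.00794, adjusted p = 0.00992) rests on S100a13.

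Ryr1, the calcium release channel of the sarcoplasmic reticulum, fell more than S100a1 probe set 95453_f_at. It went from 32024 ± 3376 to 15628 ± 1458 (SD, n = 5), a log2 change of -1.02 (limma adjusted p = 3.52e-06) against -0.44 for S100a1. Its change was -0.68 after quantile normalization and -0.39 (limma adjusted p = 0.0192) under the scaling to hybridization controls. The difference was 0.58 (exact permutation p = 0.0159, adjusted p = 0.0159), and 0.29 with adjusted p = 0.183 after quantile normalization. The pairs of S100a11 with Anxa1 and of S100a8 with S100a9 could not be tested.

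**Figure D3:**
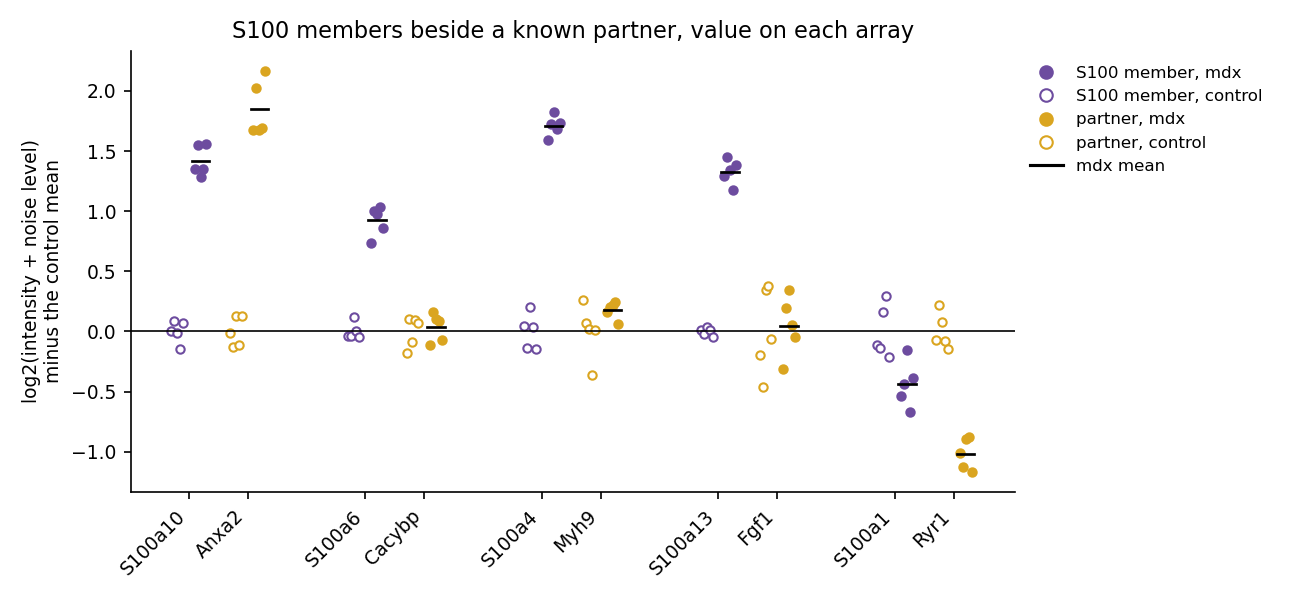
Log2(intensity + noise level) minus the control mean for the S100 member (purple) and its partner (gold) of the 5 tested pairs, on 5 control (open) and 5 mdx (filled) arrays, with the mdx mean as a bar. Anxa2 rises beside S100a10, Cacybp, Myh9 and Fgf1 lie near 0 beside S100a6, S100a4 and S100a13 at the deposited scaling (Cacybp at 0.52 and Myh9 at 0.68 when scaled to hybridization controls), and Ryr1 lies below S100a1 (by 0.58, or 0.29 after quantile normalization).

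Over the whole list of S100 partners and receptors, 5 of 18 tested genes rose, 3 fell and 10 did not pass, each gene read by its brightest tested probe set, with a median log2 change of 0.04. Over all tested probe sets 15.8% were called higher and 17.8% lower, and the share of partners that fell is near the latter. The 5 that rose were 4 annexins and nucleolin. Anxa1, a partner of S100a11 that limits inflammation, rose by 1.59 (limma adjusted p = 9.37e-09), Anxa5 by 0.96 (limma adjusted p = 0.000146) and Anxa6, which takes part in membrane repair, by 0.50 (limma adjusted p = 0.00136). Ncl, or nucleolin, rose by 0.32 (limma adjusted p = 0.0139). Beside Ryr1, those that fell were the urokinase gene Plau, at -0.36, and the fatty acid receptor Cd36, at -0.43, both dim. Ahnak, the scaffold bound by S100a10, did not pass at -0.06 (limma adjusted p = 0.661), and neither did Ager, the receptor for S100 proteins outside the cell, at -0.16 (limma adjusted p = 0.656). Ager lay below the noise level on 4 of 5 control and 5 of 5 mdx arrays, so its level cannot be read with confidence. Under the scaling to hybridization controls 10 of the 18 were called higher, Ahnak among them at 0.55, and 1 lower, Ryr1.

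Among other EF-hand proteins the changes ran both ways. Of 22 tested genes 8 rose, 5 fell and 9 did not pass, with a median log2 change of 0.17, where 15.8% of all tested probe sets were called higher and 17.8% lower. Of the 8, Nucb2 and Lcp1 lay above the filter on at most 1 control array and were tested through their mdx arrays, so their rises are a description; Lcp1, the actin bundler of leukocytes, stood at 2.24. Among the other rises were Sparc, a collagen-binding matrix protein, at 1.34 (limma adjusted p = 8.05e-08), and Rcn1 and Calu, calcium binders of the secretory pathway, at 0.61 and 0.58. Actn1, a non-muscle actinin, rose by 0.51, and Cib1 by 0.44. All 5 that fell belong to muscle fibres: the relaxation protein Pvalb (-0.45), the troponin C chains Tnnc1 (-0.69) and Tnnc2 (-0.53), and the sarcomeric actinins Actn2 (-0.52) and Actn3 (-0.54). Another probe set of Actn3 did not pass, at -0.43, and another of Pvalb was called lower, at -0.82 (limma adjusted p = 0.0334). Pvalb, Tnnc2, Actn2 and Actn3 turned to between 0.07 and 0.18 under the scaling to hybridization controls, where 0 of the 22 fell, and 13 were called higher. After quantile normalization Pvalb stood at 0.03, and Tnnc2 at -0.22 and Actn3 at -0.075 (limma adjusted p = 0.0862 and 0.473) no longer passed. The Pvalb values above 0 are those of its brighter probe set. The other stayed below 0 but did not pass. It stood at -0.60 after quantile normalization (limma adjusted p = 0.0747) and at -0.20 under the scaling to hybridization controls (limma adjusted p = 0.45).

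The S100 genes outside the rule mostly lay below the noise level. Of 5 with a probe set, 2 were tested. S100a14 went from 3277 ± 312 to 2518 ± 155 (SD, n = 5), a log2 change of -0.33 (limma adjusted p = 0.00465), but 0.23 (limma adjusted p = 0.21) under the scaling to hybridization controls, and its other probe set lay below the noise level. S100a5 lay below the noise level on all 10 arrays. It did not pass, at 0.11 (limma adjusted p = 0.493), but was called higher, at 0.35 (limma adjusted p = 0.037), under the scaling to hybridization controls. S100b, the S100 protein of Schwann cells and fat cells, lay below the noise level on all 10 arrays, as did S100a16 and S100g.

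Markers of other cells moved beside the S100 transcripts, and their part in the S100 changes was not tested. The counts below stand beside 15.8% called higher and 17.8% called lower among all tested probe sets at the deposited scaling. Of 16 tested macrophage markers 15 were higher and 0 lower, with summed intensities of 5725 to 9909 in control and 74572 to 98981 in mdx and a median log2 change of 2.42. Of these 15, Lgals3, Cd53 and Adgre1 lay above the filter on at most 1 control array and were tested through their mdx arrays, so the count and the median are a description. Of 13 fibroblast markers 9 were higher and 2 lower, with sums of 50020 to 62239 and 89211 to 103800 and a median of 1.06. Of 9 tested genes of the neutrophil list 1 was higher, the macrophage-associated Chil3 at 0.68, and 0 were lower, with sums of 3534 to 4317 and 3254 to 5616 and a median of -0.01. Under the scaling to hybridization controls 3 of the 9 were higher, with a median of 0.39. At the deposited scaling 9 of its 15 measured genes, among them Mpo, Ltf, Mmp8 and Ngp, lay below the noise level on all arrays. Of 5 tested skin and hair markers 0 were called, and 10 of 14 measured, Krt5 and Krt14 among them, were below the noise level throughout. Fibre markers checked the tissue. Their sums were 291713 to 465615 in control and 228334 to 327895 in mdx, and 11 of 14 tested were lower, against 5 after quantile normalization and 1 under the scaling to hybridization controls. Schwann cell, fat cell and blood vessel markers were called higher for 0 of 3, 2 of 4 and 1 of 9 tested genes and lower for 1, 0 and 2. Under the scaling to hybridization controls 0 of the fibroblast, Schwann cell and blood vessel markers were lower.

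On chromosome 3 the S100 genes lie in a cluster, and neighbours within it did not all change the same way. In the gene order of RefSeq assembly GRCm38.p6, no other protein-coding gene stands between S100a1 and S100a9. S100a1 and S100a13 lie side by side on opposite strands, with 104 bases between their starts in the promoter table and gene ranges that overlap, and S100a1 fell by 0.44 where S100a13 rose by 1.33. S100a14, next in order, had a change of -0.33. Under the scaling to hybridization controls S100a1 turned to 0.13 (limma adjusted p = 0.399) and S100a14 to 0.23 (limma adjusted p = 0.21), with S100a13 at 1.92. S100a4 (1.71) and S100a6 (0.92) flank S100a5, which lay below the noise level on all arrays. S100a5 was not called at 0.11, but was called higher at 0.35 under the scaling to hybridization controls. S100a10 (1.42) lies apart from the others, beyond the genes of the skin barrier and beside S100a11. Of the 8 measured skin barrier genes nearest the cluster on that side, from Lor to Tchh, 7 were not called and Sprr1b had a change of -1.08. On the other side Chtop (-0.62) and Snapin (-0.34) were called lower and Ilf2 and Ints3 were not called. Under the scaling to hybridization controls neither Chtop, at -0.035, nor Snapin, at 0.22, was called lower. Sprr2k (0.73), Crct1 (0.48) and Ints3 (0.35) were then called higher, and Sprr1b was still called lower at -0.49. These flanking genes were picked by place alone, after the S100 values were known.

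**Figure D4:**
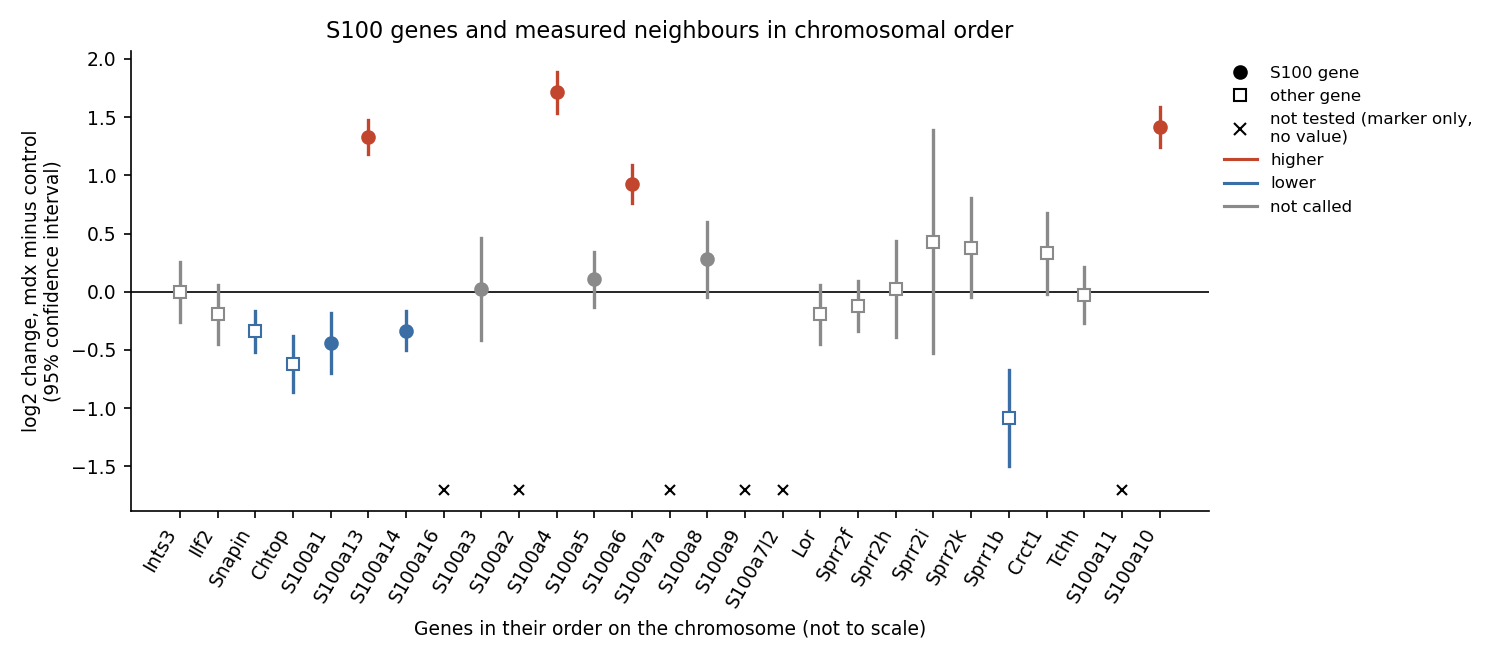
Log2 change, mdx minus control, with its 95% confidence interval for S100 genes (circles) and measured neighbours (squares) in their order on chromosome 3, not to scale, each gene by its brightest probe set. S100a13, S100a4 and S100a6 stand above 0 between measured neighbours that lie near or below it. S100a10, also above 0, is the last gene shown, beside S100a11, which was not tested. Crosses mark genes with no tested probe set. S100a5, below the noise level on all arrays, stood at 0.35, and S100a1 and S100a14 turned to 0.13 and 0.23, under the scaling to hybridization controls.

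Some of the genes nearest in profile were shared between S100 members. Likeness was the root mean square difference, over the 10 arrays, of log2 values taken relative to each probe set's control mean, among 6807 tested probe sets of genes outside the family. Because the groups differ so widely, it mostly reflects the size of the difference between them. For S100a4 the nearest were another probe set of Anxa1 (difference 0.12), the macrophage receptor Sirpa (0.13) and the lysosomal protease Lgmn (0.13). For S100a10 they were Fxyd5 (0.10), Sparc (0.10) and Fstl1 (0.12). For S100a13 probe set 100959_at they were Sparc (0.09), the actin-capping protein Capg (0.10) and Fstl1 (0.10), so Sparc and Fstl1 were near both. S100a13 probe set 100960_g_at had Itih5, Leprot and Rgs10 nearest instead, and 161121_f_at had Cyba, Lgmn and Plac8. For S100a6 they were Tram1 (0.07), Ly6e (0.09) and Kdelr3 (0.10), the first and last of them proteins of the secretory pathway. For S100a1 they were Ndufab1 (0.09), Mrps36 (0.10) and Phyh (0.11), with log2 changes of -0.46, -0.40 and -0.50; the first 2 encode mitochondrial proteins and the third a peroxisomal enzyme.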

How the data were processed

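The authors deposited probe set intensities on a linear scale, 12488 per array. The software, background correction and scaling are not given in the sources used here. By the values themselves, 19.7% to 23.8% on each array were below 0. The mean after trimming 2% from each end was 789 to 793 on 9 arrays and 715 on mdx replicate 1. Thus 9 arrays appear scaled to a common level before deposit, and mdx replicate 1 stands below it. A value is relative to the rest of its array. Probe sets were named by the platform annotation, 10833 to 1 gene, 396 to several and 1193 to none; 66 were controls and left out. The noise level, 373, is the root mean square of the 27483 values below 0, and negatives were raised to 0. The limma package, 3.58.1, under R 4.3.3 (lmFit, then eBayes with its trend option) compared 5 mdx with 5 control arrays, after tests on simulated data. The number of arrays limits the precision. Alternatives changed the pseudocount, filter, scaling, variance model, replicate block and arrays. Named were all S100 probe sets, the partners in pairs, up to 6 called genes per direction of each list by smallest p, and the 3 nearest profiles; other names were chosen after their values were seen. The members and lists were chosen with earlier results of these data known.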

Additional observations from a re-analysis of the deposited data

Results flagged for a closer look

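S100a3 (101051_at) had 1 control array far from the other 4. Control replicate 1 read 739 where the others read 296 to 336, a gap of 0.909 of the group's range, above the limit of 0.71 for 5 samples. It was the 1 such case among 30 groups of S100 values, and chance gives about 1 in 20.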

How the results depend on the processing

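The 6 S100 probe sets called higher stayed called and higher under all 20 alternatives. Scaling to the hybridization controls, which were brighter in control (mean 11295) than in mdx (7256, exact permutation p = 0.00794), moved the median change of all probe sets from -0.03 to 0.35 and the share of calls that were higher from 47.1% to 96.6%. Under it 0 S100 probe sets were called lower, and S100a1 turned to 0.13 (95453_f_at) and 0.14 (95454_at), while S100a10 162340_r_at passed at 0.44. After quantile normalization S100a3 101051_at stood at -0.035, and the difference between S100a1 and Ryr1 fell to 0.29. Quantile normalization gives every array the same set of values, which limits the change it can show for the brightest probe sets. Many fibre genes are among these, and only 0.52% of probe sets were brighter than that of Ryr1. Leaving out 1 array gave -0.083 to 0.17 for S100a3 101051_at, -0.033 to 0.15 for S100a10 162340_r_at, -0.15 to 0.00058 for S100a1 95454_at and 6 to 7 S100 probe sets called higher. The cause was not tested. A noise level of 157, from the median of the values below 0, was added after seeing the data and left 6 higher and 1 lower. Some values of S100a1 95454_at (up to 294), S100a5 (up to 348) and S100a8 (up to 186 in control) exceed 157. They count as below the noise level only at the higher level used above. With the replicate number of the titles as a block, 2238 probe sets were called against 2554, with 6 S100 probe sets higher and 1 lower; same-numbered arrays had deviations correlated at -0.16 to 0.04, so the numbers were not taken as pairs. Values near the noise level, as for S100a3, S100a8 and S100a9, limit what can be seen.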
